A study of Mus musculus with 4 samples.

Results

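The replication-dependent histone genes comprised 36 genes of the 27827 gene names on the arrays, covered by 46 of 41174 gene probes. They were chosen by name alone, as every gene spot whose name begins with Hist1h, Hist2h, Hist3h or Hist4h, and each gene was represented by the brightest of its probes over the 4 arrays. The rule itself uses no difference between groups. By class, 6 genes encode the linker histone H1, 11 encode H2A, 10 encode H2B, 3 encode H3 and 6 encode H4. By name, 26 belong to the Hist1 cluster on chromosome 13, 6 to Hist2 on chromosome 3, 3 to Hist3 on chromosome 11, and Hist4h4 lies on chromosome 6. The probe of Hist1h2al, at chr13:51295494-51295553 of mouse build mm9, lies outside that cluster. The other Hist1 probes start between 21814139 and 24026659 on that chromosome. The label does not hold for every member. Hist1h1t, Hist1h2aa and Hist1h2ba are known as germ line histones, and RefSeq lists Hist1h2al and Hist3h2bb as transcribed pseudogenes.

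Histones are the proteins around which DNA is wound. H2A, H2B, H3 and H4 form the core of the nucleosome, and H1 binds the DNA that links nucleosomes. The genes of this family are switched on in S phase, when new DNA has to be packed, and their mRNAs usually end in a conserved stem-loop instead of a poly(A) tail. In the B lineage, division is frequent among the pro-B and large pre-B cells of the bone marrow and rare among resting B cells of the spleen.

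The cells were B220 B cells, freshly isolated from naive mice, and RNA was measured on 1-colour Agilent arrays with 1 array for each of 4 groups. These were bone marrow and spleen of mice of the strain labelled Mef2c KO (marrow KO, spleen KO) and of C57BL/6 mice (marrow WT, spleen WT). The title speaks of a bone marrow-induced deficiency of Mef2c, a MADS box transcription factor. The number and age of the animals, the driver of the deletion, the strain background of the KO and the priming of the label are unknown here, since no label states them. If the label was primed on poly(A) tails, signals stand for the polyadenylated share of histone mRNAs, and otherwise for all of them, and the values below do not tell which. Each group is a single array, so differences between 2 arrays carry no measure of biological spread, and precision is limited by how few arrays there are.

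Some features of the arrays touch everything below. Spleen KO was the dimmest array, with a 75th percentile of 520 against 961 to 1008 on the others, and the log2 signals of 245 probes with 10 spots per array had a median SD between spots of 0.101 to 0.141. The probe of the ribosomal RNA Rn18s gave 18841 (KO) and 97456 (WT) in the marrow and 1009 (KO) and 641593 (WT) in the spleen, and the median spike-in signal was 2210, 1888, 1223 and 443 in the same order. Both differed widely between the spleen arrays, and their part in the histone values was not tested. Both marrow arrays were on slide 1 and both spleen arrays on slide 2, so tissue and slide cannot be told apart. The KO arrays lay at position 1 and the WT arrays at position 2 of each slide, so genotype and position cannot be told apart either. The brighter Mef2c probe was not lower in the libraries labelled KO, with signals of 5511 (KO) and 4218 (WT) in the marrow and of 11838 (KO) and 8534 (WT) in the spleen. A dimmer Mef2c probe gave 28.5 (KO) and 21.2 (WT) in the marrow and 128 (KO) and 364 (WT) in the spleen, so it was lower in KO in the spleen by a difference of -0.61 and higher in the marrow. The labels do not say whether either lies in the deleted part. Of 6 B cell markers 2 were at least 2-fold lower in KO in each tissue, with a median difference of -0.76 in the marrow and -0.02 in the spleen. At least 2-fold higher in KO were 0 in the marrow and 2 in the spleen, Ms4a1 at 1.17 and Ptprc at 1.45. Cd79b gave 173520 to 318460 over the arrays, while Cd79a gave 885 (KO) and 3090 (WT) in the marrow and 584 (KO) and 6006 (WT) in the spleen. The summed signal of 7 neutrophil markers was 1409000 (KO) and 418690 (WT) in the marrow and 75474 (KO) and 10574 (WT) in the spleen. That of 7 erythroid markers was 19433, 28487, 86593 and 23375 in the same order. None of these markers was at 0, and on spleen KO all 5 measured erythroid markers and 6 of 7 neutrophil markers were at least 2-fold above spleen WT. The sums were 2640, 487, 746 and 1512 for 3 T cell markers, 4149, 3243, 20105 and 15179 for 4 macrophage markers and 2216, 4376, 6140 and 48290 for 4 plasma cell markers. Single genes made up much of some sums, with Cd3d at 2284 on marrow KO and Igj at 44399 on spleen WT. Directions also differed within lists. In the marrow 2 T cell markers were higher in KO and 1, Cd3e at -0.62, was lower, and in the spleen 2 macrophage markers were higher in KO and 2 lower. These markers moved with tissue and genotype, and their part in the histone values was not tested. Fewer cells of a type and less RNA per cell cannot be told apart in such bulk samples.

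Copies of histone genes are so alike that a probe of 60 bases can catch several. For 12 of the 36 genes the array file lists more than 1 RefSeq transcript for the brightest probe. Among all 46 probes, 10 pairs shared at least 45 of 60 bases, of which 1 is a pair of probes of Hist2h2ac itself, and the others join 11 genes. The clearest case in H2B is the pair below, at chr13:22127928-22127987 and chr13:21814139-21814198 of mouse build mm9, both on the plus strand, in which 2 bases differ. The capitals mark the differing bases.
Hist1h2bk: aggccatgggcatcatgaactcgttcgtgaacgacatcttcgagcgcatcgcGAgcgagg
Hist1h2bm: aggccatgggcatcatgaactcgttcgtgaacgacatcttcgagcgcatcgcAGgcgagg

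In H2A, the probe of the germ line gene Hist1h2aa (chr13:24026659-24026718, mm9, plus strand) and that of Hist1h2af (chr13:23626108-23626167, plus strand) share their first 44 bases and 47 bases in all. They are shown because the germ line gene gave signals in these B cells, with 345720 (KO) and 268229 (WT) in the marrow and 69930 (KO) and 116304 (WT) in the spleen. The capitals mark the 13 differing bases. A probe of H2afj, an H2A gene outside this family, matched 45 bases of the Hist1h2aa probe.
Hist1h2aa: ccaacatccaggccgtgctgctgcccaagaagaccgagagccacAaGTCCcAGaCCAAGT
Hist1h2af: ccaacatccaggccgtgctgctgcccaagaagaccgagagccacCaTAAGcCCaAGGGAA

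In H4, the probes of Hist1h4d (chr13:23673665-23673724, mm9, plus strand) and Hist1h4f (chr13:23643249-23643308, minus strand) overlap by 50 identical bases, given in capitals. Values of genes joined in this way are not independent, and which copy gave the signal is uncertain.
Hist1h4d: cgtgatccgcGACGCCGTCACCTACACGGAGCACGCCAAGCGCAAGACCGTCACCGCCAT
Hist1h4f: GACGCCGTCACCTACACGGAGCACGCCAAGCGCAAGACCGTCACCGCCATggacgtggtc

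Of the 36 genes, 34 were well above background on all 4 arrays. The exceptions were Hist1h2be, which was above background on marrow KO only, and Hist1h1t, which was not above background on spleen KO.

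**Figure D1:**
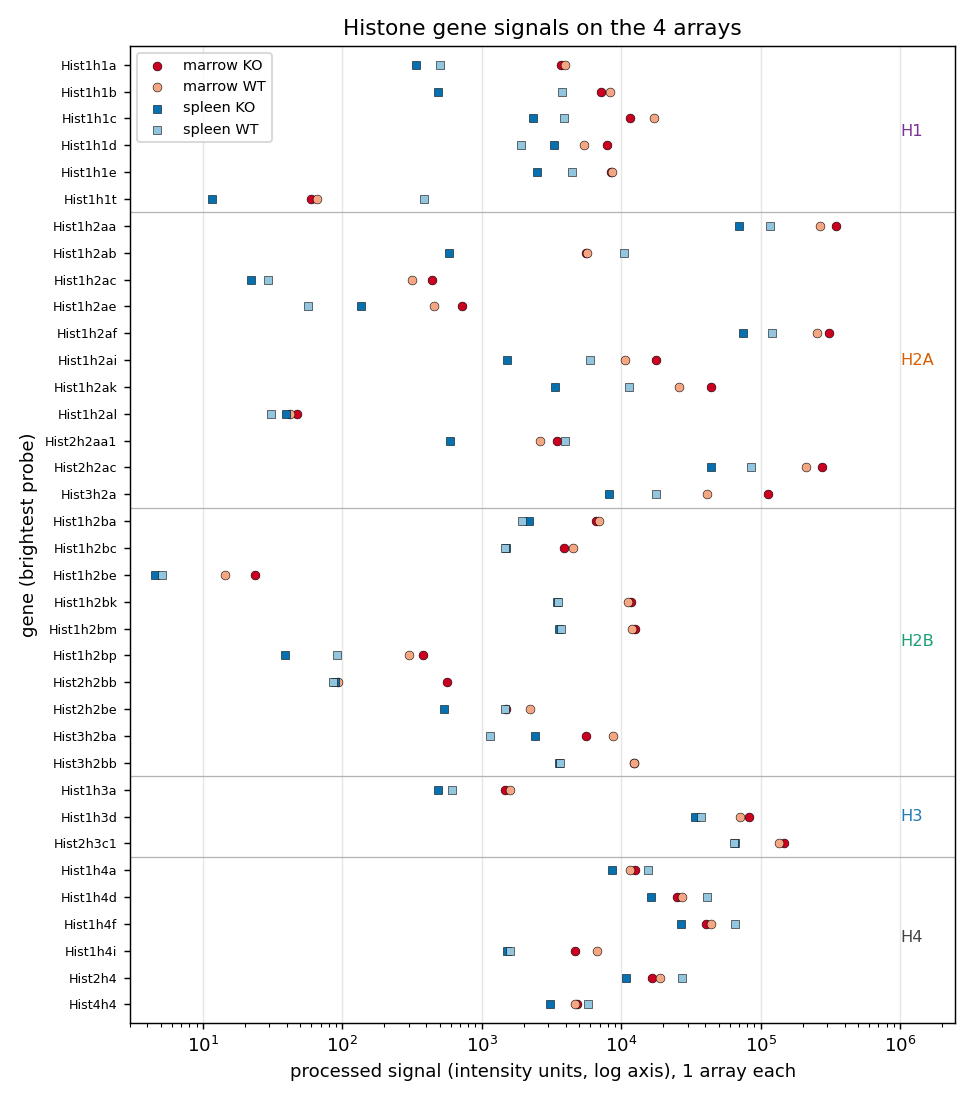
Processed signal (intensity units, log axis) of the brightest probe of each of the 36 histone genes, grouped by class, with a point for each of the 4 arrays. In most rows both spleen squares lie left of both marrow circles, while in 5 of 6 H4 rows spleen WT is the farthest right.

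The first comparison set spleen against marrow within each genotype, that is, a mature site against the site where B cells arise. Most histone genes outside H4 were lower in the spleen in both genotypes. Differences are on the log2 scale after each array was divided by its 75th percentile. In WT, 21 of 35 measured histone genes were at least 2-fold lower in the spleen and 1 was higher. Over all 21099 genes measured in WT, 15.8% were at least 2-fold lower and 15.2% higher. The median histone gene differed by -1.19, against -0.13 for all genes. In KO, 15 of 36 were at least 2-fold lower and 0 higher, against 13.9% lower and 15.8% higher of all 20005 genes, with a median of -0.85 against 0.07, or -0.83 with genes below background on 1 array at their bound. Both medians stayed below 0 under each alternative scaling, though the 21 lower genes in WT became 14 and the 15 in KO became 20 with cyclic loess. Of 35 genes measured in both genotypes, 11 were past 2-fold as lower in both and 0 as higher, while of all genes 7.91% were lower and 6.04% higher in both.

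H1 genes, which encode linker histones, gave signals of 3689 (KO) and 3951 (WT) in the marrow and of 340 (KO) and 505 (WT) in the spleen for Hist1h1a. Both spleen arrays were below both marrow arrays, by 7.90-fold in WT and 5.59-fold in KO. Hist1h1c had signals of 11648, 17295, 2322 and 3866 in the same order, a difference of -2.18 in WT and -1.37 in KO. Hist1h1b had 7212, 8321, 486 and 3791, so that its difference was -1.15 in WT and -2.94 in KO. Hist1h1e stayed under 2-fold in both, at -0.97 and -0.81, and Hist1h1d passed 2-fold in WT at -1.51 and not in KO at -0.32. A dimmer second probe of Hist1h1d had 144 (KO) and 138 (WT) in the marrow and 7.19 (KO) and 19.3 (WT) in the spleen. It was well above background on the marrow arrays only, so its differences of -2.85 in WT and -3.36 in KO rest on dim spleen values. Hist1h1t, a linker gene of the male germ line, went the other way in WT, with 66.3 on marrow WT and 385 on spleen WT, 5.76-fold higher, and it was not well above background on spleen KO.

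H2A genes were at least 2-fold lower in the spleen in 7 of 11 cases in WT and in 10 of 11 in KO. Hist1h2ac had signals of 440 (KO) and 317 (WT) in the marrow and of 22.1 (KO) and 29.2 (WT) in the spleen. It differed by -3.46 in WT and by -3.36, or 10.3-fold, in KO, with both spleen arrays far below both marrow arrays. The spleen signals were dim, and with normexp the differences were smaller, at -1.90 in WT and -1.56 in KO. Hist1h2ae had 716, 458, 137 and 56.4, which was 8.20-fold lower in WT and 2.70-fold in KO. The brightest H2A probes belong to Hist1h2aa, Hist1h2af and Hist2h2ac, and they differed by -1.22, -1.08 and -1.32 in WT and by -1.35, -1.11 and -1.70 in KO. Those of Hist1h2ai, Hist1h2ak and Hist3h2a were further down in KO, at -2.61, -2.77 and -2.83, than in WT, at -0.84, -1.19 and -1.21. A second, dimmer probe of Hist3h2a had the reverse order, at -1.73 in WT and -0.22 in KO, which is under 2-fold in KO. The pseudogene Hist1h2al, at 0.70, was the 1 H2A gene of 11 with a positive value in KO. The difference between genotypes has no test, since 4 arrays leave no residual degree of freedom for it.

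H2B genes differed by -2.94 to -0.15 in WT, with 7 of 9 at least 2-fold lower, and by -2.33 to -0.25 in KO, with 2 of 10. Hist3h2ba had signals of 5548 (KO) and 8789 (WT) in the marrow and of 2411 (KO) and 1153 (WT) in the spleen, so the WT arrays lay 7.70-fold apart and the KO arrays 1.19-fold. Hist1h2bk and Hist1h2bm, the near-identical pair printed above, differed by -1.68 and -1.69 in WT and by -0.80 and -0.85 in KO. Hist3h2bb, whose probe shares 54 to 55 bases with theirs, differed by -1.79 and -0.85. The 2 genes past 2-fold in KO were Hist1h2bp, at -2.33 against -1.74 in WT, and Hist2h2bb, at -1.72 against -0.15. Hist1h2bp gave 376 (KO) and 303 (WT) in the marrow and 38.7 (KO) and 91.4 (WT) in the spleen, so both spleen arrays were low. Hist2h2be, an H2B gene whose probe begins 2337 bases into its transcript, differed by -0.60 and -0.51, under 2-fold in both genotypes.

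The 3 H3 genes were lower in all cases, by -1.40 to -0.96 in WT and by -0.64 to -0.23 in KO. Hist2h3c1, whose probe the file lists for 4 RefSeq transcripts, had signals of 147919, 135995, 65128 and 63981 on marrow KO, marrow WT, spleen KO and spleen WT. Hist1h3d had 83043, 71535, 34003 and 37123 in the same order. For both genes the spleen arrays lay below the marrow arrays without overlap, yet the scaled differences in KO, -0.23 and -0.33, were small, since spleen KO was divided by the lower percentile.

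H4 genes did not follow the others. Hist1h4f had signals of 40854 (KO) and 44240 (WT) in the marrow and of 26734 (KO) and 65672 (WT) in the spleen, a difference of 0.56 in WT and 0.34 in KO. Hist1h4d, Hist1h4a, Hist2h4 and Hist4h4 lay at 0.60, 0.40, 0.51 and 0.29 in WT and at 0.33, 0.42, 0.33 and 0.33 in KO. By their brightest probes, these 5 genes were thus slightly higher in the spleen in both genotypes, all under 2-fold. In WT they stayed above 0 under each of 4 other scalings, but in KO Hist1h4f turned to -0.05 with quantile normalization, and Hist1h4d, Hist1h4f and Hist2h4 turned to -0.19, -0.24 and -0.13 with cyclic loess. A second, dimmer probe of Hist1h4d differed by 0.97 in WT and -0.06 in KO. The median of the brightest 5275 genes in WT was -0.27, and that of the brightest 5002 genes in KO was 0.35, near the H4 values in KO. The Hist1h4f probe shares 50 bases with that of Hist1h4d and 45 with that of Hist2h4, so these values are not independent. Hist1h4i was the exception among H4 genes, at -2.09 in WT and -0.65 in KO. Its probe begins 539 bases into the target transcript, while RefSeq gives the gene a span of 403 bases. The same holds for the probes of 4 other members, Hist1h1c, Hist1h2ac, Hist2h2bb and Hist3h2ba.

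**Figure D2:**
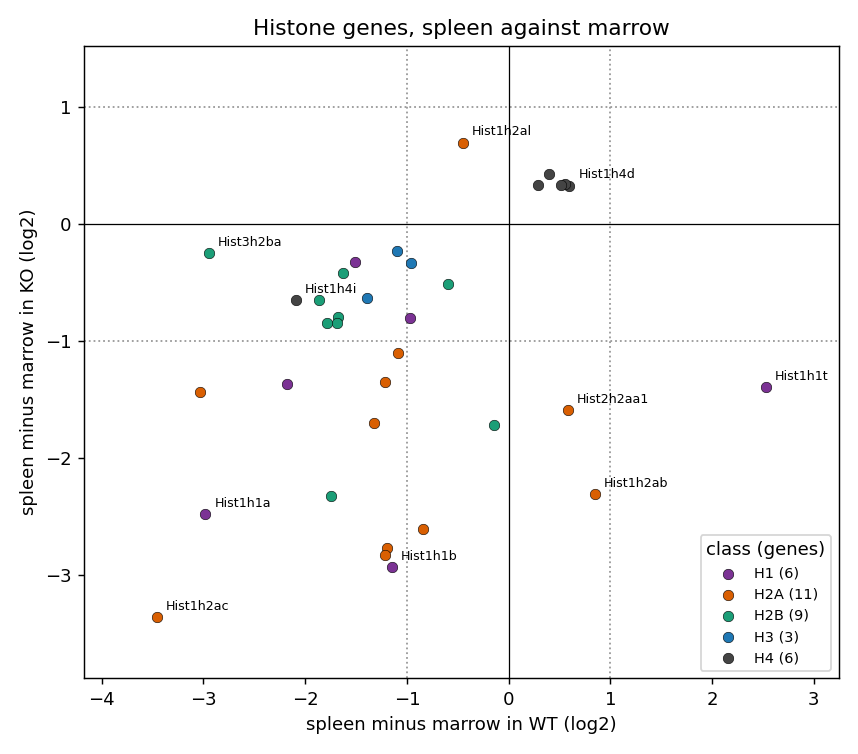
Spleen minus marrow difference (log2) in WT on the x axis and in KO on the y axis for the 35 histone genes measured in both, coloured by class, with dotted lines at 2-fold. In all, 26 genes lie below 0 on both axes, and 5 H4 genes form a group above 0 on both, although up to 3 of these fall below 0 in KO with quantile normalization or cyclic loess. Hist1h1t is drawn at its measured value although it was not well above background on spleen KO.

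An additive limma fit of tissue and genotype takes both genotypes as repeats of 1 tissue effect, which leaves 1 residual degree of freedom. Of 36 histone genes 4 were lower in the spleen at an adjusted p under 0.05 and 0 higher, while 5.51% of 21706 genes tested were lower and 2.92% higher. The tissue effect was -3.41 for Hist1h2ac (SE 0.536, limma adjusted p 0.00302) and -2.73 for Hist1h1a (SE 0.541, limma adjusted p 0.0102). It was -2.23 for Hist1h2ae (SE 0.589, limma adjusted p 0.0409) and -2.03 for Hist1h2bp, an H2B gene (SE 0.543, limma adjusted p 0.0433). Hist1h2ac and Hist1h1a passed under all 11 settings fitted, with adjusted p-values of up to 0.0252 and 0.038 in limma. Hist1h2ae and Hist1h2bp passed under 9 and failed with quantile normalization and cyclic loess. The 11 settings include the main one, and those that only drop members repeat the main fit, so they are not separate checks. The 5 H4 genes with positive differences had adjusted p-values of 0.747 to 0.850 in limma.

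Genes that act with histones were set beside them, from lists chosen for their function. Genes listed as replication-independent histones, some of which are themselves known to vary with the cell cycle, were at least 2-fold lower in the spleen for 8 of 10 measured genes in WT and 7 of 10 in KO, with medians of -1.55 and -1.22. H2afx, the H2A variant that marks DNA breaks, had signals of 117600 (KO) and 105730 (WT) in the marrow and of 4944 (KO) and 7209 (WT) in the spleen. H2afx was thus lower by differences of -3.89 in WT and -3.62 in KO, and Cenpa, the H3 variant of centromeres, by -2.29 and -2.11. H3f3a, an H3.3 gene, differed by -0.87 in WT and 0.45 in KO.

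Among 22 genes of histone mRNA transcription, processing and decay, 10 were at least 2-fold lower in WT and 6 in KO, with medians of -0.94 and -0.36. Slbp, whose protein binds the stem-loop, had signals of 36379 (KO) and 31836 (WT) in the marrow and of 9893 (KO) and 9172 (WT) in the spleen. It differed by -1.81 in WT and -0.92 in KO. Npat, the coactivator of histone gene transcription, differed by only -0.31 and -0.26, whereas its upstream cyclin gene Ccne2 differed by -3.72 and -2.29. Of 17 histone chaperone genes 10 were lower in WT and 6 in KO, with Asf1b at -2.96 and -3.14 and Chaf1a, of the replication-coupled assembly factor, at -2.65 and -3.73. The histone importer Ipo4 was not lower, at 0.82 and 0.83.

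All 22 S phase markers were at least 2-fold lower in the spleen in WT and 20 of them in KO, with medians of -2.53 and -1.99. Rrm2, a subunit of ribonucleotide reductase, differed by -4.71 and -4.49, and the replication clamp gene Pcna by -2.50 and -0.82. The medians of the histone genes, -1.19 and -0.85, were closer to 0 than those of the S phase markers. This is a description of differences, with no test between lists, and 11 histone genes share probe sequence with another member.

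**Figure D3:**
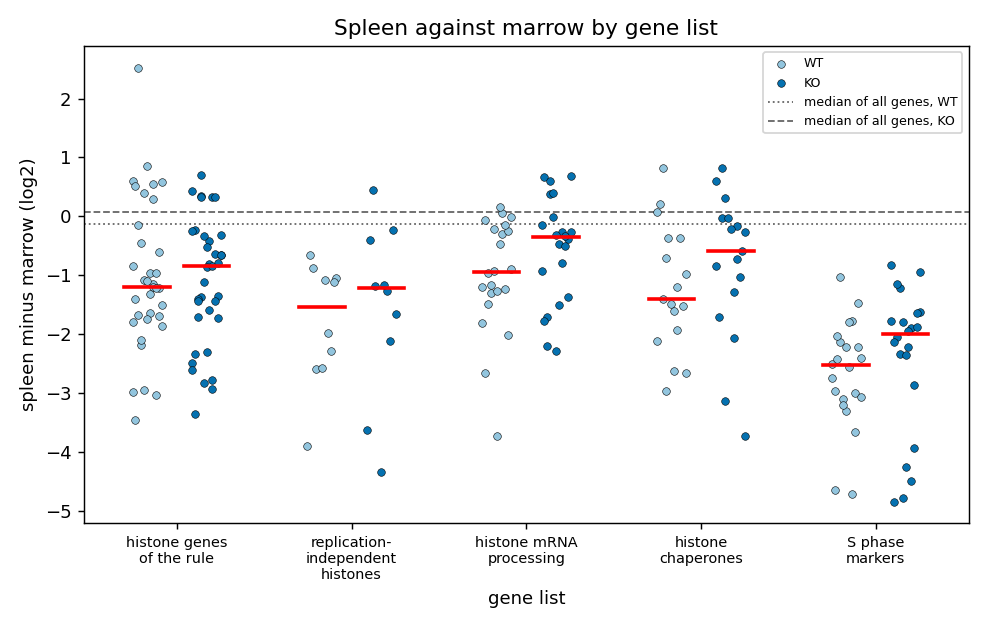
Spleen minus marrow difference (log2) of every measured gene in the histone set and in 4 related lists, with light points for WT and dark points for KO, red bars at list medians and grey lines at the medians of all genes. All 22 S phase markers lie below 0 in both genotypes, whereas the histone genes reach from -3.46 to 2.53 in WT.

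The second comparison set KO against WT in the marrow. Of 36 histone genes measured, 2 were at least 2-fold higher on marrow KO and 0 lower, while of all 20901 genes 8.40% were higher and 4.87% lower. Among the brightest 5226 genes, which hold 25 of the histone genes, 3% were higher and 2.18% lower. The median of the histone genes was 0.01 and changed sign with the processing. Hist2h2bb, an H2B gene of the Hist2 cluster, had signals of 561 (KO) and 93.4 (WT) in the marrow and of 88.0 (KO) and 85.2 (WT) in the spleen. The signal was high on marrow KO, 5.72-fold above marrow WT after scaling. On the other 3 arrays the signals were alike, but after scaling spleen KO lay 1.93-fold above spleen WT. The probe begins 1348 bases into the transcript, beyond the RefSeq span of 493 bases.

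Hist3h2a, an H2A gene on chromosome 11, had marrow signals of 112725 in KO and 41115 in WT, which lay 1.39 apart after scaling. A second probe of the gene, which begins 767 bases into the transcript against 200 for the first, had 11243 and 15216, a difference of -0.51. Both probes of Hist3h2a thus disagreed in sign by over 2-fold, and with the median over probes 1 gene was at least 2-fold higher in place of 2. The class medians were -0.19 for H1, 0.33 for H2A, -0.04 for H2B, 0.05 for H3 and -0.18 for H4. Of 11 H2A genes 10 were positive and of 6 H4 genes 5 were negative, and among these Hist3h2a alone passed 2-fold. Of all 20901 genes 9281 were positive and 11620 negative. The signs within a class are not independent, since probes are alike for Hist1h2aa and Hist1h2af, for Hist1h2ai, Hist1h2ak and Hist2h2aa1, and for Hist1h4d, Hist1h4f and Hist2h4. With normexp 9 of 11 H2A genes were positive. The H3 median turned to -0.06 with cyclic loess. Of the 22 S phase markers 0 passed 2-fold either way, with a median of 0.04.

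The third comparison set KO against WT in the spleen, where histone genes went both ways. Of 35 measured, 5 were at least 2-fold higher on spleen KO and 5 lower, while of all 19479 genes 20.0% were higher and 14.2% lower. The median was 0.17, against 0.13 for all genes, and its sign changed with quantile normalization and cyclic loess. The split was 5 higher and 13 lower with cyclic loess, 5 and 9 with quantile normalization, and 13 and 4 with median scaling. Among the brightest 4870 genes the median was 0.73 and 36.6% were at least 2-fold higher. The 25 histone genes among these had a median of 0.17.

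Higher were Hist1h2ae, Hist3h2ba, Hist1h1d, the pseudogene Hist1h2al and the germ line gene Hist1h2ba. Hist1h2ae had 137 on spleen KO and 56.4 on spleen WT, a difference of 2.18. For Hist3h2ba the signals were 2411 and 1153, for Hist1h1d 3274 and 1914, and their differences after scaling were 1.96 and 1.67. Hist1h2al and Hist1h2ba differed by 1.24 and 1.06. Lower were Hist1h1t, Hist1h2ab, Hist1h1b, Hist2h2aa1 and Hist1h2ai. Hist1h1t was at least 12.2-fold lower, as spleen KO was not well above background. Hist1h2ab had 579 on spleen KO and 10432 on spleen WT, 9.66-fold lower, whereas its marrow signals were 5559 and 5728. Hist1h1b was 4.18-fold, Hist2h2aa1 3.58-fold and Hist1h2ai 2.14-fold lower.

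A contrast in the spleen lay between H2A genes whose probes meet at the stem-loop of the mRNA. The 30 bases of each probe around it are shown for the 3 probes that hold it in whole or in part, with the bases of the stem-loop in capitals. They come from chr13:23843422-23843451 (plus strand) for Hist1h2ab, chr13:23662519-23662548 (minus strand) for Hist1h2ae and chr13:23853756-23853785 (minus strand) for Hist1h3a, all on mm9.
Hist1h2ab: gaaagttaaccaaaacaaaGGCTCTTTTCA
Hist1h2ae: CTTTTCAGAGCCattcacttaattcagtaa
Hist1h3a: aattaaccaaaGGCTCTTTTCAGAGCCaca

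The Hist1h2ab probe ends inside the stem-loop with its first 11 bases, so it reads sequence before the stem-loop. The Hist1h2ae probe starts with the last 12 bases and runs 48 bases past it, beyond the place where mature histone mRNAs are known to end. The Hist1h3a probe, of an H3 gene, holds all 16 bases. In the spleen, KO minus WT differences were -3.27 for Hist1h2ab, 2.18 for Hist1h2ae and 0.55 for Hist1h3a. In the marrow they were -0.11, 0.58 and -0.21. With 1 probe each, gene and probe position cannot be told apart.

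Probe position and the spleen values of H2A genes did not follow 1 order. The probes of Hist1h2ai and Hist1h2ak cover the start of the coding sequence, at chr13:21879028-21879087 and chr13:21845637-21845696 of mm9, minus strand, and differ in the 5 bases in capitals.
Hist1h2ai: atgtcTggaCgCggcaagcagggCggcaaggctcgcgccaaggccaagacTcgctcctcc
Hist1h2ak: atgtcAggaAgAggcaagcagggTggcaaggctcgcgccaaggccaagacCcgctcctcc

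In the spleen these probes differed by -1.10 and -0.87 between KO and WT, and a second probe of Hist1h2af, which begins 20 bases into its transcript, by -0.82. The brightest Hist1h2af probe, which begins at base 328 and shares its sequence with Hist1h2aa, differed by 0.20, and the probes of Hist3h2a at base 200 and Hist2h2ac at base 247 by -0.23 and -0.05. Hist1h2ab, at base 435, lay below all of these. For 6 genes with at least 2 probes above background on all arrays, the probe farther along the transcript had the higher KO minus WT difference in 5 genes in the spleen and in 2 in the marrow. The largest such gap was in Hist3h2a, from -0.23 to 1.01. In Hist1h4d, with probes at bases 36 and 194, the difference went from -1.48 to -0.45, and in Hist2h2ac, whose probes match in 52 of 60 bases, both probes gave -0.05. In 4 of the 6 genes both probes target the same transcript, and in Hist1h1e and Hist2h2ac the file lists different ones. The part of position in these values was not tested.

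**Figure D4:**
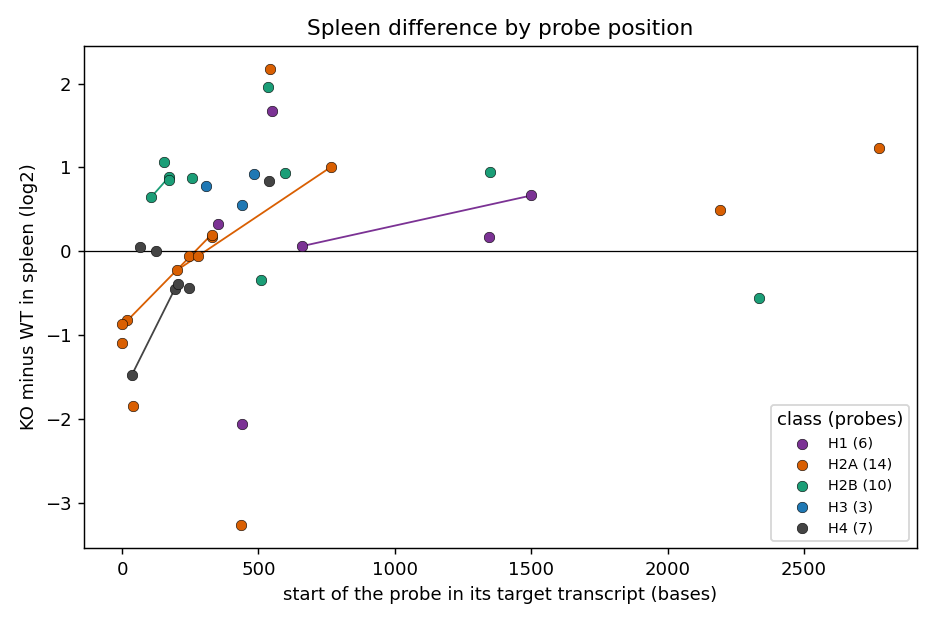
KO minus WT difference in the spleen (log2) of the 40 histone probes well above background on all 4 arrays, by the start of the probe in its target transcript in bases, with lines that join probes of the same gene. The H2A probes near base 0 lie below 0, at -0.82 to -1.84, and the 5 H2B probes that begin at bases 106 to 258 lie above it.

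By class, 7 of 9 measured H2B genes were positive in the spleen, with a median of 0.89, and 2 of them passed 2-fold as higher. Of all 19479 genes 10702 were positive and 20.0% were at least 2-fold higher, and the brightest 4870 genes had a median of 0.73. Among the 7 are Hist1h2bk, Hist1h2bm and Hist3h2bb, whose probes share 54 to 58 bases, so their values are not independent. The H2B median was 0.30 with cyclic loess and 1.30 with median scaling. All 3 H3 genes were positive, at 0.55 to 0.93, and 0 passed 2-fold, but with cyclic loess their median was -0.28. H4 genes lay between -0.45 and 0.84, and again 0 passed. H2A genes ranged from -3.27 to 2.18, and H1 genes reached from 1.67 down to the bound of -3.61 for Hist1h1t. Of 22 S phase markers 6 were at least 2-fold higher and 3 lower, such as Pcna at 1.64 and Top2a, the topoisomerase of dividing cells, at -1.87. Of 22 histone mRNA processing genes 7 were higher and 4 lower. For both lists the shares over all genes were 20.0% higher and 14.2% lower, and over the brightest 4870 genes 36.6% higher and 5.54% lower. The higher counts are thus not particular to these lists. Slbp was at 1.01, Lsm1, of the decay ring, at 1.95, and Ars2, a cap-binding partner, at -2.72.

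Of the 35 members measured in both tissues, 0 were at least 2-fold higher in both and 0 lower. Of all genes, 2.37% were higher and 2.01% lower in both, so few or no calls are likely in a set of this size. The sign of the difference was opposite between tissues for 16 of the 35 members, and for 38.1% of all 18673 genes measured in both. Outside the rule, the linker histone gene H1fx was lower in both tissues, by -2.37 in the marrow and -2.12 in the spleen. It was 1 of 10 measured replication-independent histones, of which 1 was at least 2-fold higher in the marrow and 2 in the spleen. In limma, with both tissues as repeats of 1 genotype effect, 0 of 36 histone genes passed an adjusted p under 0.05. Of all genes, 0.0507% passed as higher and 0.0138% as lower. At an unadjusted p under 0.05 there were 4 of 36 histone genes and 11.4% of all genes. The lowest adjusted p was that of Hist2h2bb, with a genotype effect of 1.73 (SE 0.587, adjusted p 0.304 in limma), higher in both tissues.

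**Figure D5:**
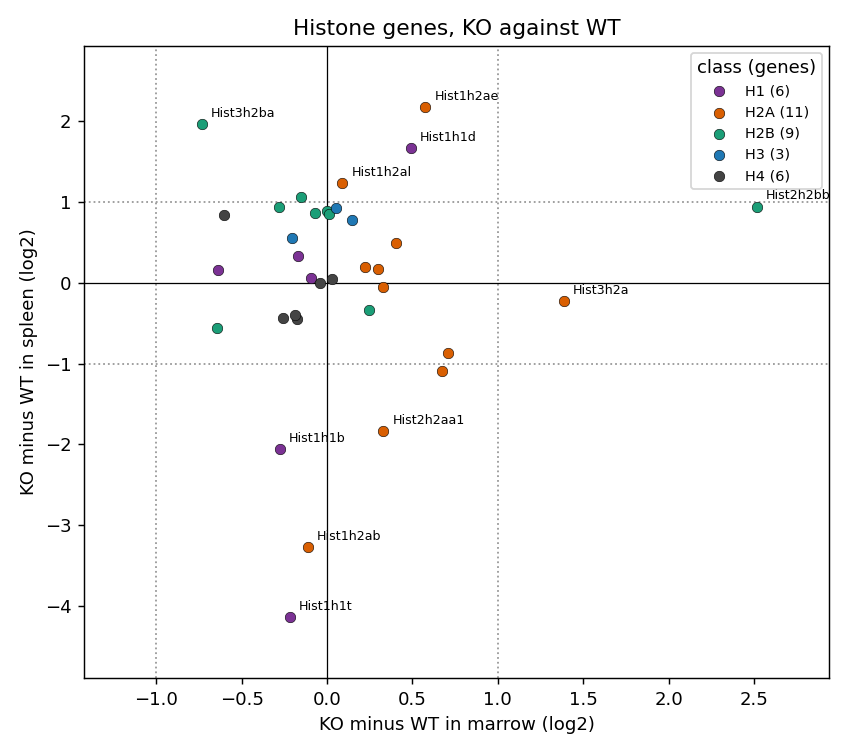
KO minus WT difference (log2) in the marrow on the x axis and in the spleen on the y axis for the 35 histone genes measured in both tissues, coloured by class, with dotted lines at 2-fold. Most genes lie within 2-fold in the marrow, and the spread is vertical, up to 2.18 for Hist1h2ae. Hist1h1t is drawn at its measured -4.14 although it was not well above background on spleen KO, where its bound is -3.61.

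Promoter sequence was taken from RefSeq (build GRCm38.p6) for 30 of the 36 genes, from 250 bases before to 50 after the start. It is given because histone genes are known to share promoter elements. The letters CCAAT, on either strand, were found in 27 of 30 histone promoters and in 41.1% of the promoters of 27025 genes, and TATAAA in 20 of 30 and in 15.7%. The H4 genes held CCAAT in 2 of 5 cases, and the genes of the other classes in all of theirs. The octamer ATTTGCAT, known as the binding site of Oct factors in H2B promoters, was found in 5 of 7 H2B and 6 of 10 H2A promoters, in 0 of 13 others, and in 1.97% of all genes. H2A and H2B genes often stand back to back, so that such windows can overlap. The 250 bases before the start of Hist1h2bm, at chr13:21721794-21722043 of GRCm38.p6, plus strand, hold the octamer and CCAAT on both strands, in capitals. A match is a description of these letters, not a site. Pou2f1, which encodes the widely expressed Oct-1, differed by -0.15 in WT and -0.33 in KO between spleen and marrow.
Hist1h2bm promoter: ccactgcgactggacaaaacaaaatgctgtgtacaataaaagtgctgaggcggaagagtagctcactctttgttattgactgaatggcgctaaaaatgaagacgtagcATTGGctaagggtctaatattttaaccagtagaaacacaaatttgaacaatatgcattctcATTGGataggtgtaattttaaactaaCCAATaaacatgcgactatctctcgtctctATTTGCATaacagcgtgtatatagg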

How the data were processed

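B220 B cells of 4 groups were measured, with 1 array of 45018 spots each. Per the file headers, Agilent Feature Extraction 10.5.1.1 made the deposited intensity, a background-subtracted processed signal, and probe positions are on mm9. The value table deposited with the arrays equals that signal at all 45018 spots. The number of columns with no sample was 0.

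Control spots and outlier-flagged spots (72 to 85 of 43379 gene spots per array) were left out. No gene spot was saturated. Spots of a probe were averaged on the log2 scale and scaled by the array's 75th percentile. A gene took its brightest probe and counted as measured when well above background on at least 1 of the arrays compared. With only 1 above, the difference was a bound against the higher of the dim value and the lowest signal well above background. A call is at least 2-fold. Tissue and genotype were fitted additively with limma 3.58.1 in R 4.3.3 over 21706 genes, with Benjamini-Hochberg adjustment, 1 residual degree of freedom and a prior spread from all genes. A genotype effect that differs between tissues enters its error. On data simulated for the genotype term, limma called 7 of 100 genes changed by 2 on the log2 scale, 97 of 100 changed by 5, and 12 unchanged ones of 21706 genes.

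Members and lists were chosen with earlier results of these data known. Genes are named when among the 3 brightest of their class, among the 6 largest differences each way past 2-fold, called by limma, or with probes that disagree in sign by over 2-fold. Genes shown for shared sequence, probe position or the stem-loop, and examples from the lists, were chosen after their values were seen. Alternatives were quantile, cyclic loess and median scaling, normexp with an offset of 50, stricter or no background filter, the median over probes, a 1.5-fold call and no germ line histones. Added after seeing the data were probes that list at most 1 RefSeq transcript and a probe choice without spleen KO. All 36 genes matched a RefSeq gene.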

Additional observations from a re-analysis of the deposited data

Results flagged for a closer look

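With 1 array per group, a difference between contrasts has no test, and none was made here. Histone genes are given when their differences had opposite signs in both contrasts and lay at least 2-fold apart.

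For KO minus WT, 8 of 35 genes met this, against 14.7% of all 18673 genes. Hist1h2ai had 0.67 in the marrow and -1.10 in the spleen, and Hist1h2ak, with a near-identical probe, had 0.71 and -0.87. Hist2h2aa1 had 0.33 and -1.84, and Hist3h2a had 1.385 and -0.23. The opposite order was seen for Hist3h2ba, at -0.73 and 1.96, and for Hist1h4i, at -0.60 and 0.84. Hist1h2ba had -0.155 in the marrow and 1.06 in the spleen, and Hist1h2bc had -0.28 and 0.93.

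For spleen minus marrow, 3 of 35 genes met this, against 16.7% of all 19397 genes. Hist1h2ab had 0.85 in WT and -2.31 in KO, Hist2h2aa1 had 0.58 and -1.59, and Hist1h2al had -0.45 and 0.70. These contrasts share arrays with those above, so Hist2h2aa1 appears in both.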

How the results depend on the processing

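Of 172 recomputed results 133 stayed close (a count within 1.5 times, a median within 0.141 and of the same sign), 32 moved further and 7 changed sign. Some of the 133 could not move. A 1.5-fold call leaves medians as they are, and the probe choice without spleen KO changed the probe of 0 members. The limma fits without germ line histones or with probes listing at most 1 RefSeq transcript are the main fit with fewer members counted. No paired analysis was possible because the labels carry no replicate numbers, beyond the limma fit, which compares genotypes within tissue. Median scaling moved the median of all genes in spleen KO minus WT from 0.13 to 0.55, and normexp moved it to 0.35. The cause of the changes below was not tested, beyond what each setting does by construction.

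The spleen KO minus WT median of 0.17 turned to -0.25 with quantile normalization and -0.425 with cyclic loess, and rose to 0.58 with median scaling and 0.36 with the median over probes. Its 5 higher genes became 13 with median scaling, 3 with normexp and 13 at 1.5-fold, and its 5 lower genes 9 with quantile normalization, 13 with cyclic loess and 3 with probes listing at most 1 RefSeq transcript. The marrow median of 0.01 turned to -0.08 with quantile normalization, -0.018 with cyclic loess, -0.015 with normexp, -0.029 with the median over probes and -0.10 with probes listing at most 1 RefSeq transcript. Its 2 higher genes became 1 with the median over probes and 5 at 1.5-fold, and its 0 lower genes 4 at 1.5-fold.

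The WT spleen minus marrow median of -1.19 became -0.88 with cyclic loess and -1.365 with median scaling, and its 1 higher gene 2 with quantile normalization and cyclic loess, 0 without germ line histones and 3 at 1.5-fold. The KO median of -0.85 became -1.06 with quantile normalization, -1.17 with cyclic loess, -0.62 with median scaling, -1.10 with the median over probes and -1.36 with probes listing at most 1 RefSeq transcript. Its 15 lower genes became 23 and its 0 higher genes 1 at 1.5-fold.

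In limma, the 4 genes lower in the spleen became 2 with quantile normalization and cyclic loess, 16 with normexp, 11 with the filter on all arrays and 7 with no filter. For genotype, 0 became 1 higher with the filter on all arrays (Hist2h2bb, adjusted p 0.0483) and 1 lower with normexp (Hist1h2ab, adjusted p 0.0121) or with no filter (Hist1h1t, adjusted p 0.0342).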
